A study of Mus musculus with 2 samples.

Results

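The genes described here encode the DNA replication licensing and fork machinery: the proteins that mark replication origins, load and start the replicative helicase, and copy, join and repackage DNA behind it. They were chosen by name, as 44 mouse gene symbols whose identifiers occur in the gene tables of both libraries, out of 43346 Ensembl genes in those tables. The rule for membership uses names only, although earlier results of these data were known when the list was drawn up. All 44 were found, and all 44 reached a TPM of at least 1 (the usual transcript level per unit of length, scaled to a fixed sum over the library) in both libraries. For comparison, 38.9% of 21461 nuclear protein-coding genes did so, which is 8345 genes.

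Replication is prepared in G1 phase, when the origin recognition complex binds DNA and, with Cdc6 and Cdt1, loads the ring-shaped MCM helicase around it, a step called licensing. Geminin, the product of Gmnn, blocks Cdt1 after S phase has begun, so that an origin is not licensed again in the same cycle. Kinases then start the loaded helicase together with Cdc45 and the GINS complex, and the fork is followed by primase, the sliding clamp and its loader, the replicative polymerases and the factors that join and repackage the new strand. Erythroid progenitors are rapidly dividing cells, and many of these genes are known as targets of E2F transcription factors.

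The cells were G1E, an immortalised mouse line labelled as an erythroid progenitor without Gata1, the gene of a transcription factor needed for red cell maturation. The 2 libraries were each made from 1 ng of total RNA, size-selected above 200 nucleotides, and hold spike-in RNA. The labels give both libraries the strain C57BL/6J, male sex, an age of 0 days and a postnatal stage, and describe no treatment, so there is a single group. The libraries are labelled biological replicates 1 and 2, but nothing says whether they came from separate cultures, so their spread may be partly technical.

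Replicate 1 held 31649878 estimated counts and replicate 2 held 40597614; nuclear protein-coding genes accounted for 8513094 and 7669565 of them. All 9 progenitor markers reached 1 TPM in both libraries, from Kit at 175 and 114.55 TPM, Gfi1b at 122.69 and 71.97 TPM and Myb at 79.6 and 46.68 TPM down to Klf1 at 14.57 and 10.03 TPM. Gata1 itself was listed at 21.96 and 12.51 TPM; the labels do not say which part of the gene is altered, so this value checks neither its loss nor its presence as a protein. None of 12 markers of T, B, myeloid, endothelial, fibroblast and pluripotent cells reached 1 TPM in both libraries, and 9 of them had 0 counts in both; Adgre1, a macrophage gene, had 1 and 15 counts and passed the test between the libraries. Replicate 2 stood apart in erythroid maturation genes, whose summed level was 151 TPM in replicate 1 and 1501 TPM in replicate 2. All 8 of these (Hba-a1, Hba-a2, Hbb-bs, Hbb-bt, Slc4a1, Alas2, Rhd and Aqp1) were higher in replicate 2 past the test used between the libraries below. Over all genes tested, 5.12% were called higher in replicate 2. These 8 genes were listed with earlier results of these data known, so their passing is no independent evidence. The near-identical globin copies can share reads. With spike-in counts as the scale, 5 of the 8 were lower in replicate 2.

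The replication genes were expressed above the typical detected gene. Their median level was 18.5 TPM in replicate 1 and 11.6 TPM in replicate 2, against 9.31 and 6.08 TPM for the median detected nuclear protein-coding gene. Of the 44 members, 34 lay above that median in replicate 1 and 33 in replicate 2. All 44 had a lower TPM in replicate 2, and so did the median detected gene: the ratio of replicate 2 to replicate 1 was 0.644 for that gene and 0.630 for the median member. For the members, TPM is therefore compared within a library, and libraries are compared on scaled counts. Together the members held 46781 counts in replicate 1 and 40143 in replicate 2, which is 0.550% and 0.523% of the counts on nuclear protein-coding genes.

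The order of the genes was alike in both libraries, with a Spearman correlation of 0.977 and a Pearson correlation of log2 TPM of 0.978 over 44 genes, which share their transcript lengths and annotation between libraries. Neighbours in that order could seldom be separated. Of 43 neighbouring pairs, 17 kept the same order in both libraries. Only for 3 of them (Mcm3 above Orc4, Orc3 above Pcna, and Rfc4 above Mcm4) did the deposited credibility intervals lie apart in both libraries.

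**Figure D1:**
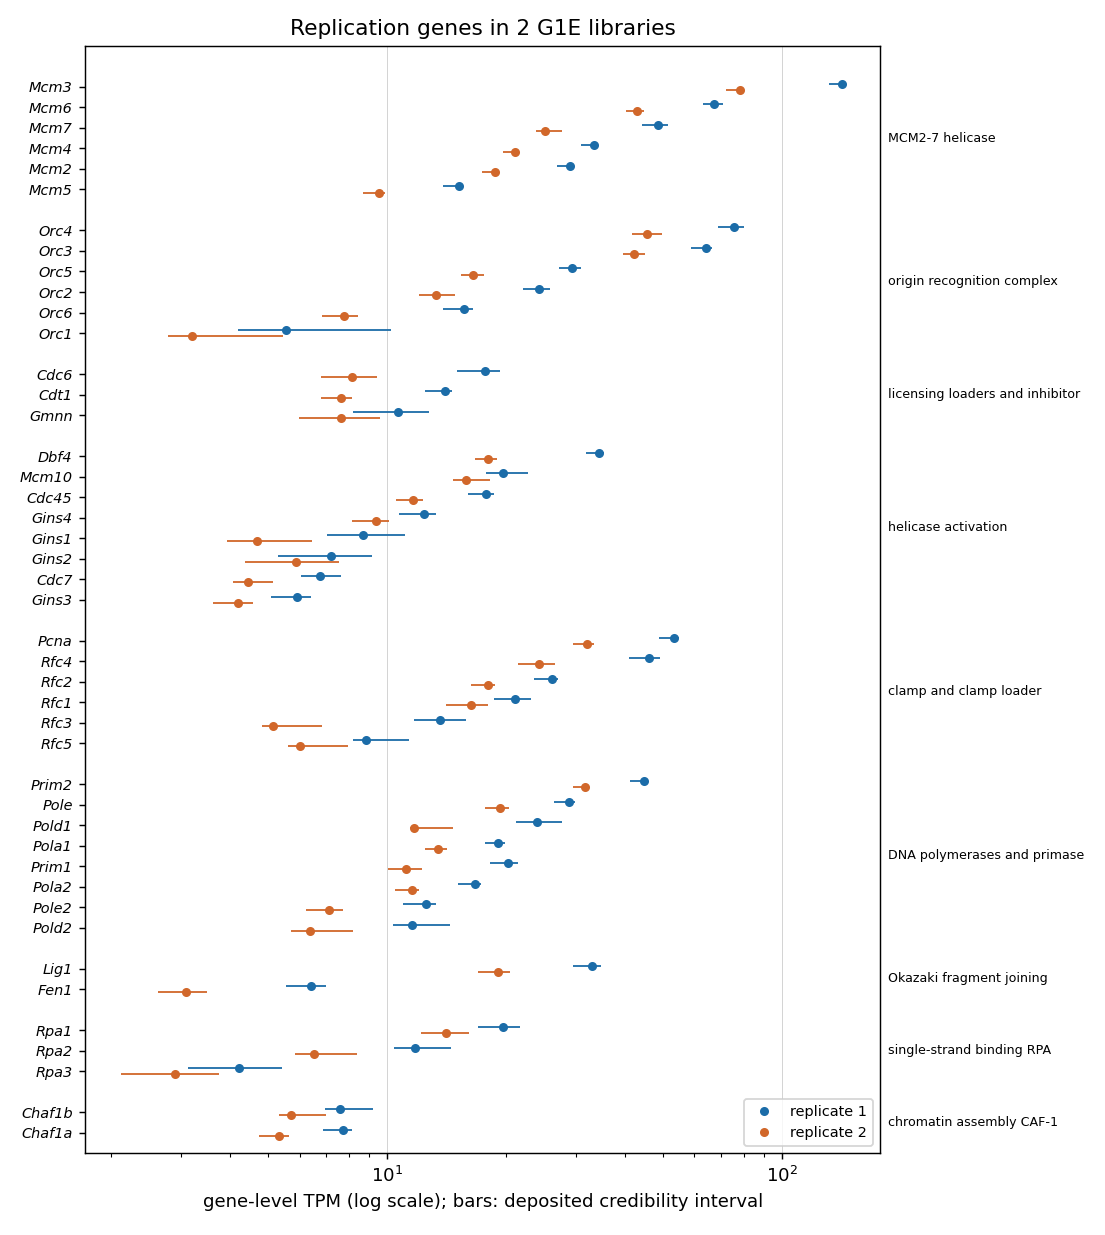
Gene-level TPM (log axis) of the 44 replication genes in replicate 1 (blue) and replicate 2 (orange), grouped by role and ordered by level, with bars for the deposited credibility interval of each value. Mcm3, at 141.91 and 78.04 TPM, is the highest of the 44 in both libraries, and Rpa3, at 4.22 and 2.90 TPM, is the lowest.

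The origin recognition complex is the 6-subunit ATPase that binds origins, and its subunits were spread widely. Orc4, on chromosome 2 (48902824 to 48950277, GRCm38), was at 75.64 TPM in replicate 1 and 45.55 TPM in replicate 2. Orc3 was at 63.98 and 42.06 TPM. Summed over all annotated transcripts, these 2 core subunits lay well above the others in both libraries. Orc5 was at 29.33 and 16.45 TPM and Orc2 at 24.24 and 13.27 TPM. Orc6, the subunit least tightly bound to the rest, was at 15.66 and 7.78 TPM. Orc1, the subunit whose protein is removed after S phase starts in mammalian cells, was the lowest at 5.53 and 3.21 TPM, from 249 and 203 counts. Its deposited interval in replicate 1, 4.20 to 10.2 TPM, lay below the value of every other subunit in that library.

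The loaders lay near each other. Cdc6, the ATPase that joins the origin complex to recruit the helicase, was at 17.69 and 8.13 TPM. Cdt1, which brings the helicase to the origin, was at 13.99 and 7.64 TPM. Gmnn, its inhibitor, was at 10.62 and 7.66 TPM, from only 134 and 142 counts. The level of Cdt1 was 1.32 times that of Gmnn in replicate 1 and 0.997 times in replicate 2 (mean 1.16 ± 0.226, SD, n = 2). The deposited credibility intervals of Cdt1 and Gmnn overlapped in both libraries, so their order could not be told.

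The helicase genes Mcm2 to Mcm7 encode a ring that holds 1 copy of each subunit, and as a group they were the highest by role, with a median of 40.9 TPM in replicate 1 and 23.1 TPM in replicate 2. Mcm3, on the minus strand of chromosome 1 (20802968 to 20820312), led at 141.91 and 78.04 TPM. Mcm6, on the minus strand of the same chromosome (128331590 to 128359664), was at 67.28 and 42.85 TPM. Mcm7 followed at 48.51 and 25.08 TPM. The other 3 subunits were lower in both libraries. Mcm4 was at 33.36 and 21.09 TPM, and Mcm2 at 29.06 and 18.70 TPM. Mcm5 was the lowest at 15.19 and 9.55 TPM. The highest subunit was 9.34 times the lowest in replicate 1 and 8.17 times in replicate 2.

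The genes of helicase activation were lower, with a median of 10.5 and 7.62 TPM. Dbf4, the regulatory subunit of the kinase that phosphorylates the loaded helicase, was the highest at 34.40 and 18.04 TPM. Cdc7, the catalytic subunit of the same kinase, was at 6.76 and 4.43 TPM. Dbf4 thus lay 5.09-fold above its partner in replicate 1 and 4.07-fold in replicate 2 (mean 4.58 ± 0.719, SD, n = 2). Cdc45, which joins the helicase when it becomes active, was at 17.84 and 11.65 TPM, and Mcm10, needed to start it, at 19.67 and 15.85 TPM. GINS, the other partner of the active helicase, has 4 subunits, and these lay within 2.10-fold and 2.23-fold of each other. Gins4 was at 12.41 and 9.35 TPM, Gins1 at 8.67 and 4.67 TPM, Gins2 at 7.20 and 5.88 TPM and Gins3 at 5.91 and 4.19 TPM.

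Pcna, the sliding clamp that holds polymerases on DNA, was at 53.35 and 32.05 TPM, the fifth of the 44 by mean level. Its counts, 1443.63 and 1217.98, were the only ones among the members that were not whole numbers in both libraries. A processed pseudogene, Pcna-ps2, was listed with 259.37 and 219.02 counts, so the division of reads between these copies is uncertain. Of the clamp loader, Rfc4 was the highest over all transcripts, at 45.92 and 24.22 TPM. Rfc2, another small subunit, was at 26.19 and 17.95 TPM, and Rfc1, the large subunit, at 21.07 and 16.26 TPM. Rfc3 was at 13.57 and 5.14 TPM and Rfc5 at 8.86 and 6.03 TPM. The lowest subunit was thus Rfc5 in replicate 1 and Rfc3 in replicate 2.

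Among polymerases, Prim2, the large primase subunit, was the highest at 44.74 and 31.72 TPM. Prim1, the catalytic primase subunit, was at 20.24 and 11.17 TPM. Pola1 and Pola2, the catalytic and accessory subunits of polymerase alpha, which extends the primer, were close together at 19.10 and 13.43 TPM and at 16.73 and 11.55 TPM, a ratio of 1.15 ± 0.0149 (SD, n = 2). Both other replicative polymerases showed a higher level of the catalytic gene. Pole, of the leading-strand polymerase epsilon, was at 28.87 and 19.30 TPM, and its partner Pole2 at 12.55 and 7.14 TPM. Pold1, of the lagging-strand polymerase delta, was at 23.89 and 11.70 TPM, and its partner Pold2 at 11.57 and 6.39 TPM.

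The genes that finish the new strand differed from one another. Lig1, the ligase that seals Okazaki fragments, was at 33.08 and 19.08 TPM. Fen1, the nuclease that trims the flaps between fragments, was at 6.43 and 3.09 TPM, so that Lig1 was 5.14 and 6.17 times higher (mean 5.66 ± 0.728, SD, n = 2). RPA, the trimer that coats single-stranded DNA, had Rpa1 at 19.60 and 14.13 TPM, Rpa2 at 11.78 and 6.53 TPM and Rpa3 at 4.22 and 2.90 TPM. The small subunit Rpa3 rested on 50 and 47 counts, the fewest of any member. Chaf1a and Chaf1b, the large and middle subunits of the histone chaperone CAF-1, were nearly equal in both libraries: Chaf1a was at 7.75 and 5.32 TPM, and Chaf1b at 7.58 and 5.69 TPM.

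A gene's TPM sums all its annotated transcripts, and for several members most of it lay on transcripts annotated as non-coding. The deposited transcript tables hold 219 transcripts of the members. By the classes of GENCODE M21, 97 are protein-coding, 66 retain an intron, 40 are processed transcripts without an open reading frame, 6 are targets of nonsense-mediated decay, and 10 had no match in M21 and were counted as not coding. Protein-coding transcripts carried 66.9% of the members' summed TPM in replicate 1 and 67.8% in replicate 2, against 80.9% and 81.2% over all detected nuclear protein-coding genes. Transcripts that retain an intron carried 21.1% and 18.0%, against 9.63% and 9.86%. Much of that gap was Mcm3, for without it the members' retained-intron share was 12.5% and 10.9%. In counts, coding transcripts held 81.3% and 81.7% for the members, and 89.3% and 89.4% over all detected nuclear protein-coding genes.

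For 8 members, 18.2% of the 44, less than 50% of the TPM was on coding transcripts in both libraries: Mcm3, Orc3, Orc4, Mcm10, Gins2, Rfc1, Pold1 and Rpa1. The same held for 922 detected nuclear protein-coding genes, or 11.0%. In counts rather than TPM, Mcm10, Gins2 and Rpa1 were over 50% coding in both libraries. Orc4, Rfc1 and Pold1 were below 50% in both, and Mcm3 and Orc3 in a single library each. At the other end, 13 members had at least 99% on coding transcripts in both libraries, among them Mcm2, Mcm4, Mcm5, Cdt1, Cdc45 and Fen1. In Rfc1 the rest lay on transcripts with no match in M21, whose class is therefore not known here. In 4 members the coding share moved by over 20 percentage points between the libraries. One was Rfc3, with 53.7% in replicate 1 and 91.6% in replicate 2.

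Mcm3 shows how much the sum can rest on a short model. Mcm3-205, a 607-base transcript annotated as retaining an intron, was given 74.4 TPM in replicate 1 and 46.74 TPM in replicate 2, which is 52.4% and 59.9% of the gene. The coding transcript Mcm3-201, of 3031 bases, was given 25.26 and 20.39 TPM, or 17.8% and 26.1%. In counts the order was the reverse: 778.64 and 664.32 for the short transcript and 1563.05 and 1743.15 for the coding one. Of the 607 bases, 581 (95.7%) also lie in exons of coding transcripts, where reads of both cannot be told apart. On coding transcripts alone, Mcm3 moved from the first to the eighth place among the members.

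The bases that tell such short models from the coding transcript are few. The sequences below, from the GENCODE M21 transcripts (GRCm38), show these bases in capitals, followed or preceded by 30 bases shared with coding exons in lower case. Mcm3-205 differs in 26 bases at its 5′ end, Gins2-204 in 16 of 511 bases, Rfc4-205 in 12 of 449 bases and Rpa1-205 in 65 of 716 bases at its 3′ end. The printed stretches lie on the minus strand at chr1:20804878-20804933, chr8:120586163-120586208, chr16:23114703-23114744 and chr11:75316040-75316134. In the first 3 the capitals run up to an exon and end in AG, the last letters of an intron, and in Rpa1-205 they begin with GT, the first letters of one.
Mcm3-205: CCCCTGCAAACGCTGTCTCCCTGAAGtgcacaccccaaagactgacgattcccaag
Gins2-204: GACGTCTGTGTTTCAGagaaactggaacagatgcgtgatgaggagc
Rfc4-205: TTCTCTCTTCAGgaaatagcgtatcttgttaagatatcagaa
Rpa1-205: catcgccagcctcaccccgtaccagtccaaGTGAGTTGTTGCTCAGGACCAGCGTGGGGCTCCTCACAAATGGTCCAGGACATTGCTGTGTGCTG

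The other short models shown took large shares of their genes as well. Gins2-204 was given 5.20 and 4.18 TPM, 72.2% and 71.1% of its gene, from 43.8 and 47.63 counts. The coding Gins2-201, of 3900 bases, was given 1.66 and 0.83 TPM from 133.48 and 92.45 counts. Rpa1-205 was given 44.3% and 41.0% of Rpa1, and Rfc4-205 43.3% and 34.4% of Rfc4. In Orc4 no transcript dominated: the processed transcript Orc4-205, which shares 54.4% of its bases with coding exons, took 17.8% and 26.4%, and the coding Orc4-201 took 14.9% in both libraries. Of the 66 retained-intron transcripts, 15 share at least 90% of their bases with coding exons, and these took from 0 to 71.6% of their gene's TPM (mean of both libraries), with a median of 8.17%. The 4 printed above had the highest shares among them.

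**Figure D2:**
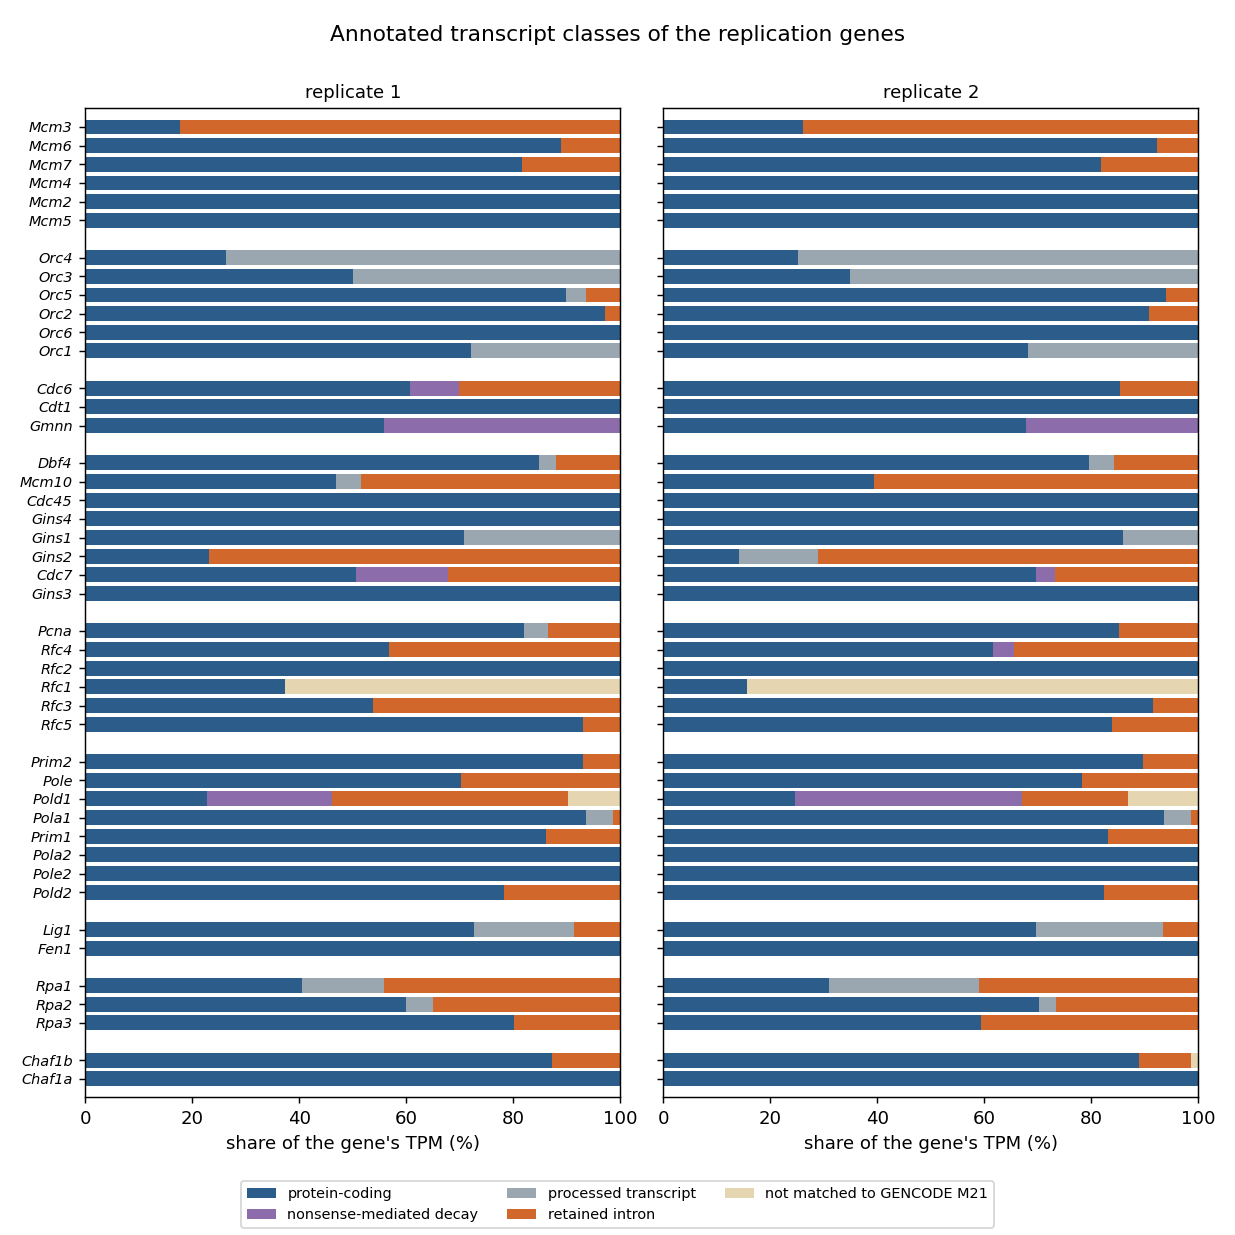
Share of each gene's TPM (%) on annotated transcript classes of GENCODE M21, in replicate 1 (left) and replicate 2 (right), for the 44 replication genes in the order of the plot of levels. Mcm3 and Gins2 are mostly on retained-intron transcripts, Orc4 mostly on processed transcripts, and 13 genes are at least 99% on coding transcripts in both libraries.

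Which subunit led a complex, and by how much, depended on whether all transcripts or only the coding ones were summed, a choice added after the values had been seen. In the MCM ring, the highest subunit became Mcm6 at 59.86 and 39.53 TPM, and its lead over Mcm5, the lowest either way, was 3.94-fold and 4.14-fold. Mcm3, at 4.88 and 4.17 times Mcm2 by all transcripts, was at 0.869 and 1.09 times by coding transcripts. In the origin recognition complex, Orc4 dropped to 19.94 and 11.46 coding TPM, below Orc5 and Orc2. Orc3 led in replicate 1, at 31.96 coding TPM against 26.35 for Orc5. In replicate 2 Orc5 led, at 15.46 coding TPM against 14.65 for Orc3. Orc1 remained the lowest at 4.0 and 2.19 coding TPM. The span of that complex was 13.7-fold and 14.2-fold by all transcripts, and 7.99-fold and 7.06-fold by coding ones.

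Other complexes spread further apart on coding transcripts or changed order. In GINS the span went up from 2.10-fold and 2.23-fold to 7.48-fold and 11.3-fold, since Gins2 had 1.66 and 0.83 coding TPM. In polymerase delta the order turned over: Pold1 was 2.06 and 1.83 times Pold2 by all transcripts, and 0.603 and 0.546 times by coding transcripts, with 2 of the Pold1 transcripts that had reads without a match in M21. In polymerase epsilon Pole stayed above Pole2, by 1.62-fold and 2.12-fold. In the clamp loader the highest subunit became Rfc2, at 26.19 and 17.95 coding TPM, against 26.04 and 14.94 for Rfc4. In RPA, Rpa1 stayed the highest in replicate 1, at 7.93 coding TPM against 7.06 for Rpa2. In replicate 2 Rpa2 led, at 4.58 coding TPM against 4.39 for Rpa1. Cdt1 was 2.36 and 1.47 times Gmnn on coding transcripts, above it in both libraries. This was because 44.2% and 32.2% of Gmnn's TPM lay on Gmnn-205, a transcript annotated for nonsense-mediated decay. Gmnn-205 has only 387 bases and was given 27.2 and 19.09 counts, against 106.8 and 109.89 for the coding Gmnn-202. CAF-1 stayed balanced, with Chaf1b at 0.854 and 0.953 times Chaf1a on coding transcripts.

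**Figure D3:**
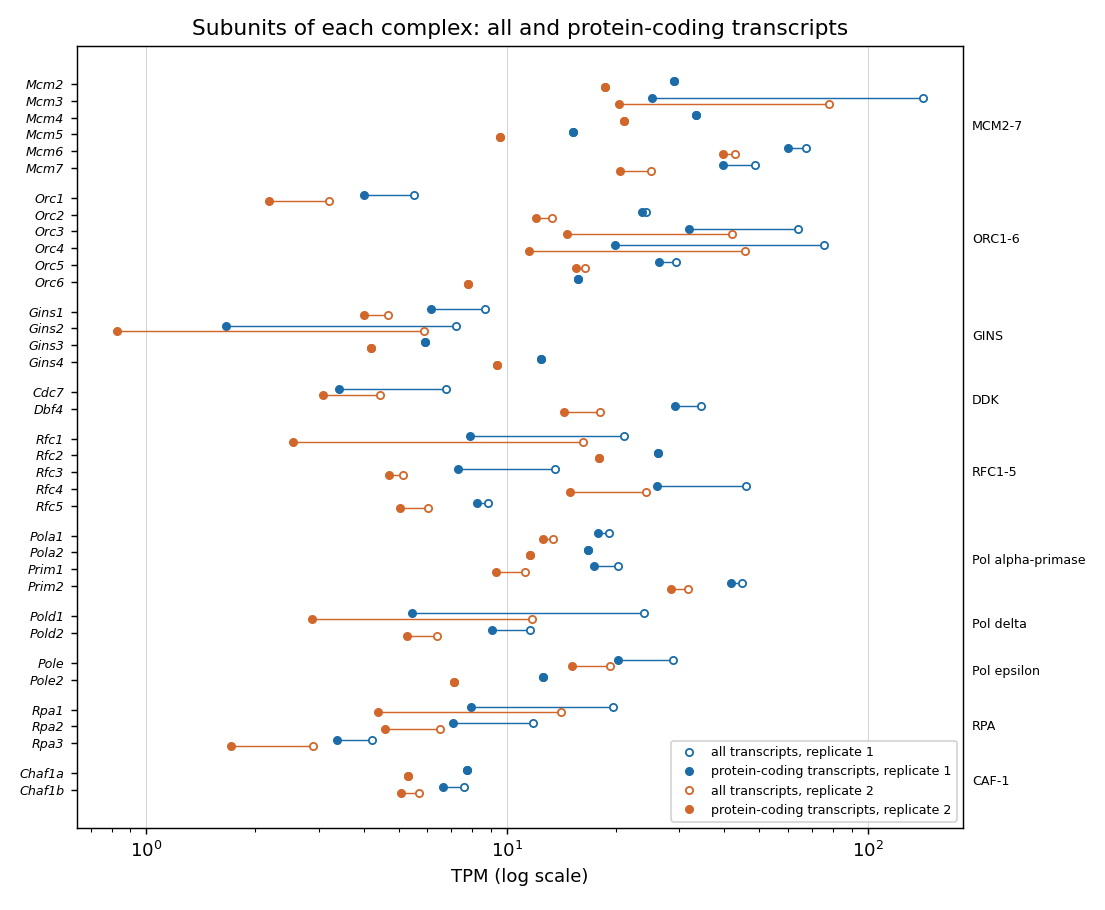
TPM (log axis) of each subunit of 10 complexes, summed over all transcripts (open circles) or over protein-coding transcripts only (filled circles), in replicate 1 (blue) and replicate 2 (orange), with a line joining both sums of a library. The lines are long for Mcm3, Orc3, Orc4, Gins2, Rfc1 and Pold1, and of no length for genes such as Mcm2, Mcm5 and Gins4.

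Between the libraries the replication genes hardly differed once the libraries were scaled. Counts were scaled by the trimmed mean of M-values (TMM, edgeR), and each gene was tested with a two-sided exact binomial test, with Benjamini-Hochberg adjustment over 11902 genes. A call needed both an adjusted p under 0.05 and a ratio of 2-fold or more. None of the 44 members was called, while 7.32% of all genes tested were: 5.12% higher and 2.20% lower in replicate 2. At an unadjusted p under 0.05 the exact binomial test picked 16 members, with 41.3% of all genes tested, and a negative binomial exact test (edgeR) picked 0, with 5.70% of all genes. By the rule for calls, the negative binomial test called 0 members and 2.49% of all genes (2.21% higher and 0.277% lower in replicate 2). The members' ratios of replicate 2 to replicate 1 ran from 0.722 to 1.22. The negative binomial test took its dispersion from the same 2 libraries without groups. Their difference thus enters that dispersion, so this second test cannot show that the members are alike. With a single group the exact binomial test compares the libraries, not conditions, and its intervals cover counting error only.

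Small shifts were common. At an adjusted p under 0.05 with no limit on fold, 15 members differed by the exact binomial test, 12 of them lower and 3 higher in replicate 2, a share that is near the background of 32.3% of all genes tested. The largest was Rfc3, with 305 counts in replicate 1 and 196 in replicate 2, a ratio of 0.722 (95% Clopper-Pearson interval 0.600 to 0.866, adjusted p = 0.00205 by the exact binomial test). Orc2, with 1508 and 1080 counts, had a ratio of 0.804 (0.743 to 0.870, adjusted p = 5.97e-07 by the same exact test), and Dbf4, with 1604 and 1157 counts, 0.810 (0.750 to 0.874, adjusted p = 6.07e-07). The 3 higher members were Chaf1b at 1.22 (1.04 to 1.45), Prim2 at 1.10 (1.03 to 1.18) and Pola1 at 1.09 (1.03 to 1.16). Of the 6 origin recognition genes, 5 had a ratio below 1, 4 of them at an adjusted p under 0.05 by the exact binomial test. Beside Orc2 these were Orc6 at 0.767 (0.667 to 0.881), Orc5 at 0.888 (0.815 to 0.967), Orc4 at 0.906 (0.850 to 0.965) and, without passing, Orc1 at 0.916 (0.757 to 1.11). Orc3 had a ratio of 1.00 (0.943 to 1.06). Variation between libraries, fewer cells in S phase and less RNA per cell cannot be told apart here. RNA of many cells was pooled, and there is a single group.

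The median log2 ratio of the members was −0.06, against 0.01 for all genes tested, and 27 of the 44 were negative, against 49.0% of all genes. Scaling by total counts moved the median of all genes to −0.52 and that of the members to −0.58, and scaling by spike-in counts moved them to −4.49 and −4.56, the same shift for every gene. By role the median log2 ratio ran from −0.27 for Lig1 and Fen1 to 0.19 for Chaf1a and Chaf1b, and the helicase genes lay at −0.03. Mcm2, with 2007 and 1785 counts, had a ratio of 0.999 (0.937 to 1.07), and Mcm6, with 3787 and 3360 counts, of 0.996 (0.951 to 1.04). Beside these ratios near 1, the same libraries had a ratio of 101 (84.4 to 123) for Slc4a1, the red cell anion exchanger. Whether the difference in erythroid maturation genes bears on the small shifts was not tested.

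**Figure D4:**
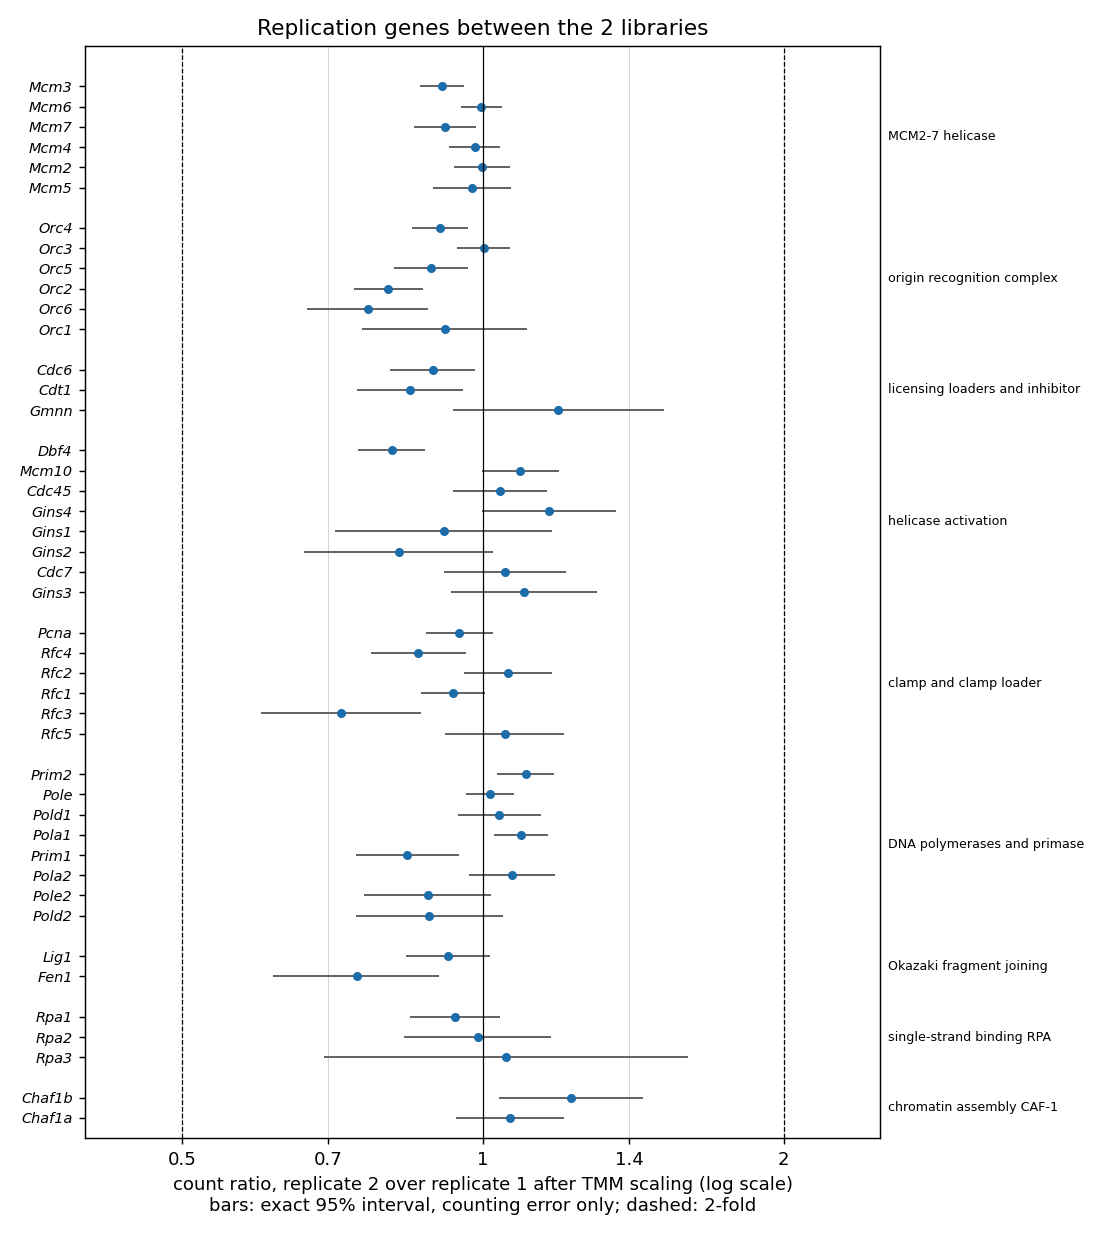
Ratio of scaled counts, replicate 2 over replicate 1 (log axis), for the 44 replication genes grouped by role, with exact 95% Clopper-Pearson intervals for counting error; the solid line marks equality and the dashed lines 2-fold. All points lie between 0.722 and 1.22, inside the dashed lines.

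A further 36 genes of replication that are not among the 44, such as polymerase accessory subunits, fork protection factors and histone chaperones, were expressed as well. Of these, 35 reached 1 TPM in both libraries, with a median of 15.9 and 11.5 TPM. By the exact binomial test 0 were called between the libraries, against 7.32% of all genes tested. The highest were Top2a, the topoisomerase that untangles sister chromosomes, at 88.62 and 66.59 TPM, Topbp1, a checkpoint and initiation factor, at 92.18 and 62.74 TPM, and Top2b at 95.06 and 47.62 TPM. The lowest were Recql4 at 1.70 and 1.41 TPM and the meiotic and repair helicase gene Mcm9 at 0.72 and 0.55 TPM. Mcm9 and its partner Mcm8, at 7.61 and 4.79 TPM, were both below every subunit of the Mcm2 to Mcm7 ring.

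Genes of mitosis were expressed at a like level and had a higher median ratio between the libraries. All 26 reached 1 TPM in both, with a median of 21.2 and 15.8 TPM. Mad2l1, of the spindle checkpoint, was at 64.91 and 39.53 TPM, Tpx2, a spindle assembly factor, at 65.37 and 34.44 TPM, and Ccnb1, the mitotic cyclin, at 58.60 and 36.93 TPM. The lowest were Cdc20 at 10.96 and 5.86 TPM and Ttk at 8.26 and 4.98 TPM. Their median log2 ratio was 0.23 and 6 of 26 were negative, while by total counts the median was −0.29, above that of all genes, and by spike-in counts −4.27. Birc5, a subunit of the chromosomal passenger complex, was the 1 gene called, with 413 and 837 counts and a ratio of 2.28 (2.02 to 2.57, adjusted p = 2.24e-43 by the exact binomial test). That 1 call among 26 genes stood beside 7.32% of all genes tested. The difference between mitosis and replication genes was not tested.

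Many promoters of the members hold a sequence known to bind E2F. RefSeq promoters (GRCm38.p6), from 250 bases before to 50 bases after the start, were present for 36 of the 44 members, as 45 entries; Mcm4, Gmnn, Gins1, Gins2, Gins4, Rfc2, Prim2 and Pole had none. The words TTTCCCGC, TTTGGCGC, TTTCGCGC and TTTGCCGC were searched on both strands. At least 1 of them was found in 14 of the 36 members (38.9%), namely Mcm3, Mcm5, Mcm6, Mcm7, Orc1, Orc3, Cdc6, Cdt1, Gins3, Rfc3, Pola1, Pold1, Pole2 and Lig1. The same words were found in 704 of all 27025 genes with an entry (2.61%), and in 31.1% of the members' promoters against 2.26% of all promoters.

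Stretches around such words are shown for 5 members in which they lie before the RefSeq start and outside the exons of the gene in GENCODE M21. Each is written 5′ to 3′ on the strand of the gene, with the word or its reverse complement in capitals. Counted back from the RefSeq start, the capitals begin 153 bases before it in Mcm5, 47 in Mcm6, 41 in Orc3, 138 in Cdc6 and 138 in Pola1. In GENCODE M21 the Cdc6 gene begins further upstream, so that its stretch lies within the gene there, in none of its exons. The positions are chr8:75109340-75109379 (plus strand), chr1:128359729-128359768 (minus), chr4:34614960-34614999 (minus), chr11:98907997-98908036 (plus) and chrX:93632270-93632309 (minus).
Mcm5: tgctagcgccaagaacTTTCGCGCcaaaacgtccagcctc
Mcm6: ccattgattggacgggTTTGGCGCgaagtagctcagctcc
Orc3: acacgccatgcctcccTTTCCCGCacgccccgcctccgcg
Cdc6: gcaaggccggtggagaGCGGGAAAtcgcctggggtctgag
Pola1: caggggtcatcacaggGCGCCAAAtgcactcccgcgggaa

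In Mcm5 the word overlaps a second one on the other strand, GCGCCAAA, which begins 149 bases before the start. Mcm6 holds an additional pair of overlapping words that begin 110 and 106 bases before the start. A match is a description of letters, not of binding. By all transcripts, members with and without a word had like levels: the median was 18.4 and 10.6 TPM for the 14 with one, and 18.7 and 11.6 TPM for the 22 without. On coding transcripts the median was 14.59 and 8.595 TPM with a word, and 12.445 and 7.01 TPM without. The difference was not tested.

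Of the other promoter words, CCAAT and the GC box were common in all genes and more frequent in the members, while TTTGAA and TATAAA were not more frequent. CCAAT was found in 61.1% of the members and 41.1% of all genes, and the GC box GGGCGG in 77.8% and 38.2%. The cell cycle element TTTGAA was found in 19.4% and 20.2%, and TATAAA in 8.33% and 15.7%. These words were all searched on both strands of the same windows, and they can overlap one another. For these and the E2F words, shares among detected genes or among promoters of like base content were not computed.

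Several members share their promoter region with a gene on the other strand. Of the 44, 10 (22.7%) had a protein-coding gene pointing away from them with its start within 1000 bases or overlapping by up to 200 bases, against 15.6% of detected and 7.90% of all nuclear protein-coding genes. Orc3 and Rars2, a mitochondrial tRNA ligase gene, start 13 bases apart, with Rars2 at 15.97 and 12.57 TPM. Mcm4 starts 466 bases from Prkdc, which encodes a DNA repair kinase and was at 9.36 and 6.67 TPM. The other 8 are Orc1, Orc6, Gins1, Dbf4, Pole, Fen1, Rpa1 and Rpa3. Partners ran from 1.31 TPM in replicate 1 for Smyd4, beside Rpa1, to 67.7 TPM for Vps35, beside Orc6.

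Exons of 13 members also overlap those of a gene on the other strand that had counts. The overlap covered 78.8% of the exonic bases of Fen1, with Gm10143 at 6 and 0 counts, and 67.3% of those of Gins2, with Gse1 at 1249 and 1213 counts against 203 and 149 for Gins2. It covered 52.5% for Chaf1a, with Ubxn6 at 92 and 71 counts. The sources used here do not give the strand setting of the counting, so the values of the overlapped genes are uncertain. Among them are Rfc4, overlapped over 12.7% of its exonic bases by Eif4a2 at 3807.72 and 3228.42 counts, and Orc6, overlapped over 6.93% by Vps35 at 4403 and 3460 counts.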

How the data were processed

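Total RNA libraries of 2 G1E replicates were used, each with a gene and a transcript table. Per the file headers, the deposited expected counts are estimates that need not be whole, and the deposited TPM (maximum-likelihood and posterior mean) and FPKM are scaled for length. Per the file headers, the authors also deposited credibility bounds of TPM, whose level the sources used here do not give, and the isoform percent of each transcript. The deposited records name mm10 and GENCODE M4; the sources used here do not give the aligner or quantifier. Names, positions and transcript classes came from GENCODE M21 on GRCm38, matched on identifiers without version (42462 of 43346 genes), so a class can differ from the one in M4.

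Levels are TPM, detected at 1 TPM or more in both libraries, with mean and SD over 2 libraries. Coding TPM sums the transcripts classed protein-coding. A gene needed at least 10 counts over both libraries to be tested; counts were rounded, and log2 ratios had 0.5 added counts. The edgeR quasi-likelihood test needs replicates in each group and could not be fitted. The common dispersion, estimated by edgeR without groups, gave a biological coefficient of variation of 26.3%. In a test on simulated data with counting error only, with 11905 genes drawn from these libraries, the exact binomial test called 22 of 50 genes changed 2-fold, 50 of 50 changed 3-fold, and 1 of 11705 unchanged. The changed genes came only from genes well above the limit of 10 counts, and all were raised in the simulated replicate 2. A 2-fold change lies at the limit for calls itself. A count of 0 allows up to 3 counts, 0.0948 and 0.0739 CPM. The 97 spike-in entries and 26248 entries named by a number (3 and 7 counts) were left out of gene tests.

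The members and gene lists were chosen with earlier results of these data known. All 44 members are named, and of each other list the 3 highest and 2 lowest by mean TPM and those called; Mcm8, transcripts, promoter words' neighbours and overlapping genes were named after their values were seen. Alternatives were other scalings, filters, estimates, leaving out a library and a negative binomial test. R 4.3.3, edgeR 4.0.16, DESeq2 1.42.0, Python 3.11.15, pandas 2.3.3, NumPy 2.4.6, SciPy 1.17.1 and matplotlib 3.10.9 were used.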

Additional observations from a re-analysis of the deposited data

How the results depend on the processing

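Summing protein-coding transcripts only, an alternative chosen after seeing the data, moved the ratio of the highest to the lowest subunit (mean of both libraries) from 8.76 to 4.04 for MCM2-7, 13.9 to 7.52 for ORC, 2.17 to 9.37 for GINS, 4.58 to 6.60 for Cdc7 and Dbf4, 4.95 to 5.32 for the clamp loader, 1.95 to 1.75 for polymerase delta (with Pold2 the higher), 2.50 to 1.87 for polymerase epsilon, 4.76 to 2.50 for RPA and 1.05 to 1.11 for CAF-1, and Cdt1 over Gmnn from 1.16 to 1.92. For the clamp loader the libraries moved in opposite directions, from 5.18 to 3.59 in replicate 1 and from 4.71 to 7.04 in replicate 2. In replicate 2 the lowest subunit became Rfc1, part of whose TPM lay on transcripts with no match in M21, counted as not coding. CAF-1 also moved in opposite directions, from 1.02 to 1.17 in replicate 1 and from 1.07 to 1.05 in replicate 2. Posterior mean TPM gave 11.1 for ORC, 4.37 for the clamp loader and 1.13 for CAF-1. A pseudocount of 1 TPM gave 11.4 for ORC, 1.97 for GINS, 4.43 for the clamp loader, 2.63 for polymerase alpha and primase, and 3.91 for RPA. The members' median of 15.04 TPM became 11.6 on coding transcripts alone, where 43 members reached 1 TPM in both libraries. That median became 90.1 when TPM was rescaled to nuclear protein-coding genes, by construction. With spike-in counts, 0.00162% and 0.0255% of the libraries, as the scale, all 44 members were called lower in replicate 2 and the median log2 ratio went from −0.06 to −4.56; with total counts it was −0.58 and 0 were called. The sign of Orc3 turned to −0.00333 with DESeq2 size factors, a change near 0. Isoform percents from posterior means lowered the median share of the main transcript from 75.1% to 67.3%, and leaving out Mcm3 lowered the retained-intron share from 19.6% to 11.7%. For these shifts other than the rescaling, the cause was not tested. FPKM and other filters moved no value by more than 1 SD and no count by more than 1.5 times, nor did leaving out either library, which with 2 libraries cannot move a mean by more than 1 SD; at 5 TPM, 38 members were detected. No paired analysis was possible because there is 1 group. Depth limits the members with few counts, such as Rpa3 (50 and 47), Gins1 (145 and 118) and Gmnn (134 and 142).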
